A study of Mus musculus with 6 samples.

Results

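Antagonists of BMP and activin are proteins outside the cell or in its membrane that keep these ligands from signaling. The 9 genes described here, *Grem1*, *Nog*, *Chrd*, *Fst*, *Fstl1*, *Fstl3*, *Bambi*, *Sostdc1* and *Twsg1*, were chosen by name, and all 9 were among the 19270 genes of the deposited table. Bulk RNA-seq was performed on the proximal region of the incisor, with 3 control and 3 *Arid1b* mutant libraries, at 4 days after tamoxifen induction in mice aged 1 month. The mutants carried Gli1-CreER;Arid1bfl/fl, so that tamoxifen removes the chromatin remodeler subunit *Arid1b* from cells of the *Gli1* lineage, which in the incisor covers mesenchyme and epithelium. Controls were labelled wild type, the study's methods give them as floxed *Arid1b* mice, and both groups received tamoxifen. For each gene the authors deposited 1 mean per group and no value per library, so the means below have no SD. Their own comparison columns were not used, and no test across mice was made here. Differences are therefore described as higher or lower means, and whether they exceed the spread between mice was not tested.

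BMPs and activins are dimeric ligands of the TGF-β superfamily that bind type II and type I receptors and signal through SMAD proteins. Noggin, chordin and gremlin bind BMPs and block their contact with receptors, and follistatin and FSTL3 bind activins tightly. TWSG1 binds chordin and BMPs, SOSTDC1 antagonizes both BMP and Wnt ligands, and BAMBI is a membrane pseudoreceptor without a kinase domain. In the mouse incisor, follistatin is known for limiting enamel formation to the labial side. In the mouse dentition as a whole, SOSTDC1 is known for limiting the number of teeth and of molar cusps.

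None of the 9 antagonists differed by more than 1.5-fold between the means of *Arid1b* mutant and control incisors, while 13.2% of all genes did. Among the genes whose 2 group means averaged at least 10, the share past 1.5-fold was 3.06%, and 0 of the 8 antagonists in that range were past it. *Chrd* was closest to the limit, with a mutant mean 1.46-fold below the control mean. *Fst*, *Fstl3* and *Nog* were higher in the mutants by 1.20-fold to 1.24-fold, *Grem1* was lower by 1.26-fold, and *Bambi*, *Sostdc1* and *Twsg1* differed by at most 1.03-fold. The signs were mixed, with 5 antagonists higher and 4 lower and a median log2 ratio of 0.0060. Of all genes 50.5% were higher, and their median was 0.0022.

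**Figure D1:**
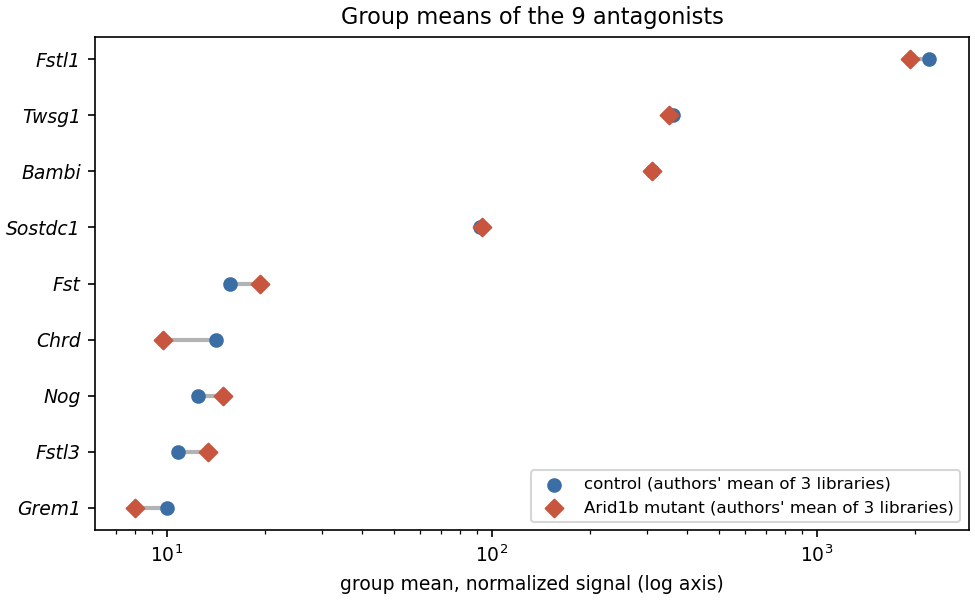
Authors' mean of the normalized signal (log axis) for each antagonist in control (circles) and *Arid1b* mutant (diamonds) libraries, 3 libraries a group, with no error bars because values per library were not analysed here. The 4 abundant genes show nearly overlapping symbols except *Fstl1*, and the 5 genes below 20 show visible gaps, the widest for *Chrd* (14.2 against 9.75).

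Chordin, gremlin and noggin are the classical binders of BMPs. *Chrd*, on chromosome 16 of GRCm38 from 20733127 to 20742384, had an authors' mean normalized signal of 14.2 in control libraries, against 9.75 in the mutants. The ratio of mutant to control was 0.686, with a 95% exact interval of 0.637 to 0.738 for counting error. *Grem1*, on chromosome 2 from 113746164 to 113758646, had means of 10.03 and 7.99 and a ratio of 0.796 (counting interval 0.731 to 0.866). *Nog*, a gene of a single exon on chromosome 11 from 89300638 to 89302332, went the other way, with means of 12.5 and 14.9 and a ratio of 1.20 (counting interval 1.12 to 1.28). These intervals rest on reads estimated from the lowest value of each library and leave out the differences between mice, so they say only that sampling of reads is small beside the gaps.

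*Chrd* and *Grem1* were the 2 of 9 antagonists whose higher group mean lay more than 25% above the lower one, a limit that 26.5% of all genes passed. Low expression widens such ratios, and among the 3975 genes whose mean lay between 5 and 20, a range that holds 5 of the 9 antagonists, 17.1% were past this limit of 25%. The share of antagonists in that range past the limit was 2 of 5. A larger fold than that of *Chrd* was found for 7.17% of the genes in the range and a larger fold than that of *Grem1* for 16.5%, so that both sit toward the wide side of genes of similar abundance without standing outside them.

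The promoters of these 2 genes are shown because they were the antagonists past the 25% limit, and because BMP signaling acts through SMAD proteins whose GC-rich binding element has the core GGCGCC. The windows run from 250 bases before to 50 bases after the RefSeq start (GRCm38.p6), on the strand of the gene, with matches to GGCGCC in capitals. The motif reads the same on both strands. The windows are chr16:20732877-20733176 on the plus strand for *Chrd* and chr2:113758599-113758898 on the minus strand for *Grem1*.
Chrd: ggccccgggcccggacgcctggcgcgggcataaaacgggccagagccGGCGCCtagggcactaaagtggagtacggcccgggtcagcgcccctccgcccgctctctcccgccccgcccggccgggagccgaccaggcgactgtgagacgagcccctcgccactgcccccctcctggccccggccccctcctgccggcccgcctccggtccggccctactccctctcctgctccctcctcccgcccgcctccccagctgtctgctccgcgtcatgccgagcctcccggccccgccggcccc
Grem1: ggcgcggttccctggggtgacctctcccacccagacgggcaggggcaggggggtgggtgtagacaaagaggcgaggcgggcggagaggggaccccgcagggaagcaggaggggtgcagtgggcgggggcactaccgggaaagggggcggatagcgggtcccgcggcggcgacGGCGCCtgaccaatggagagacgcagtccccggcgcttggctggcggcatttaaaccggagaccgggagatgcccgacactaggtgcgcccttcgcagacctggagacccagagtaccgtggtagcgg
Each window holds 1 match, and the GC content is 78.3% for *Chrd* and 70.7% for *Grem1*. Windows were searched for 5 of the 9 antagonists, and *Nog*, *Fst*, *Bambi* and *Sostdc1* were left out of the search. The other 3 windows searched, those of *Fstl3*, *Fstl1* and *Twsg1*, hold 0 matches. Their GC contents are 70.7%, 66.7% and 68.0%, although *Fstl1* and *Twsg1* also had lower means in the mutants. Which antagonists hold the motif is therefore known only for these 5. Of all 32851 promoter windows of this length, 11.9% hold the motif, and their median GC content is 52.7%. The antagonist windows searched are all richer in GC than that median, so the share of 11.9% is not matched to them in base content. A match describes the letters of the window, and binding of a SMAD protein there was not measured. Whether the motif has any link to the ratios was not tested.

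Follistatin and FSTL3, which neutralize activin, both had higher means in the mutants. *Fst*, on chromosome 13 from 114452290 to 114458951, had a control mean of 15.7 and a mutant mean of 19.4, a ratio of 1.24 (counting interval 1.17 to 1.32). *Fstl3*, on chromosome 10 from 79777272 to 79782630, had means of 10.8 and 13.3 and nearly the same ratio, 1.24 (counting interval 1.15 to 1.33). A larger fold was found for 18.04% of genes between 5 and 20 in the case of *Fst* and for 18.3% in the case of *Fstl3*, so neither ratio is unusual at this abundance.

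The exons of *Fstl3* overlap those of *Prss57*, a gene on the opposite strand, over 47.3% of their bases, and the study does not state whether reads were counted by strand. *Prss57* itself had means of only 0.191 in control and 0.144 in mutant libraries. Overlaps of exons were smaller for *Chrd* (3.82%, with *Thpo*, which had means of 0.944 and 0.694) and for *Fst* (2.51%, with an antisense transcript), and the other 6 antagonists share no exon base with another annotated gene.

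*Fstl1*, which encodes a secreted glycoprotein with a follistatin domain that can bind BMP4, was by far the most abundant of the 9. It lies on chromosome 16 from 37776873 to 37836514. Its control mean was 2215 and its mutant mean 1942, a ratio of 0.877 (counting interval 0.872 to 0.881), and the control mean exceeded that of 99.9% of all genes. Despite the depth behind it, the difference of 12.3% has no estimate of its spread between mice, and 20.6% of genes averaging 10 or more had a larger fold.

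The remaining antagonists had nearly equal means in both groups. *Bambi*, on chromosome 18 from 3507923 to 3516404, had means of 310.0 and 311.3, a ratio of 1.00. *Sostdc1*, on chromosome 12 from 36314139 to 36318452, had means of 91.7 in control and 93.2 in mutant libraries, a ratio of 1.02. *Twsg1*, on chromosome 17 from 65921972 to 65951226, had means of 361.8 and 350.2, a ratio of 0.968. The counting intervals were 0.990 to 1.02 for *Bambi*, 0.991 to 1.04 for *Sostdc1* and 0.955 to 0.981 for *Twsg1*, so for *Bambi* and *Sostdc1* even the sampling of reads covers a ratio of 1. Equal means of 3 libraries do not show that the genes were equal in each mouse.

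**Figure D2:**
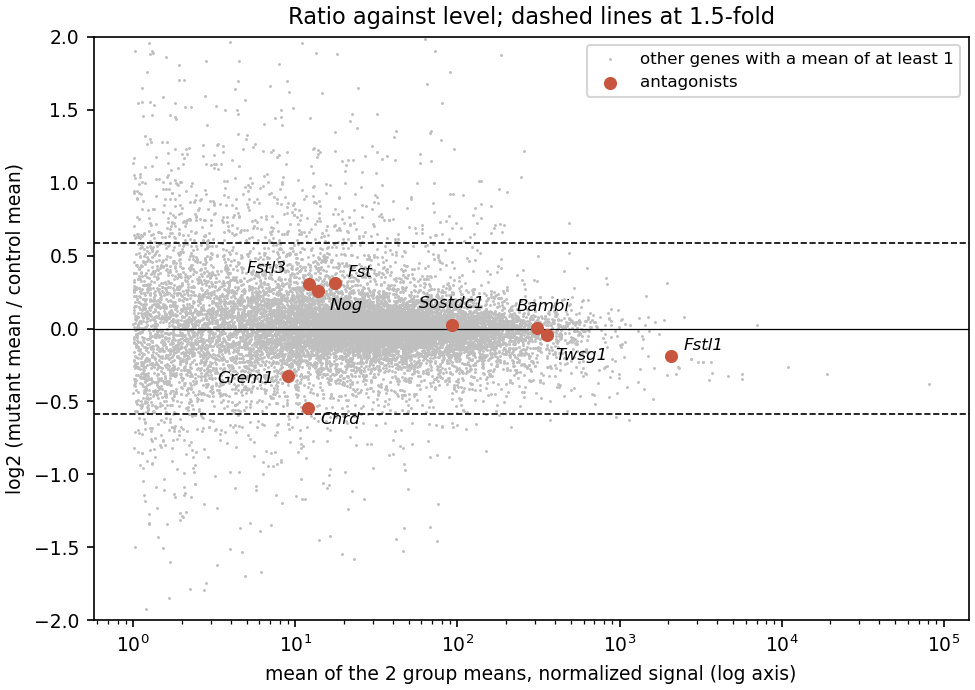
Log2 ratio of mutant to control mean against the mean of both groups (normalized signal, log axis) for genes with a mean of at least 1 (gray) and for the 9 antagonists (red), with dashed lines at 1.5-fold; 47 gray genes beyond a log2 ratio of 2 in either direction are not shown. All 9 antagonists lie between the dashed lines, and those with the widest ratios have means between 5 and 20.

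Levels of different genes were compared per kb of exon, since longer transcripts give more reads. The length joins all annotated exons of a gene. It exceeds the longest annotated transcript for genes such as *Fst* (4589 against 2921 bases) and *Chrd* (6258 against 4406 bases). Which transcripts were expressed was not determined, so these levels are approximate. In the controls the order from highest to lowest was *Fstl1* (450.8 per kb), *Twsg1* (70.2), *Bambi* (61.1), *Sostdc1* (51.5), *Nog* (7.36), *Fstl3* (4.41), *Fst* (3.41), *Grem1* (2.42) and *Chrd* (2.27). The order in the mutants was the same, with *Fstl1* at 395.1 per kb and *Chrd* at 1.56 per kb. The order has 2 wide steps in the controls, a level of *Fstl1* 6.42-fold that of *Twsg1* and a level of *Sostdc1* 6.99-fold that of *Nog*. The other neighbours lay within 1.67-fold of each other in the controls, and whether any neighbours differ beyond the spread between mice was not tested. Below the step at *Nog* are 5 antagonists near the middle of all genes, at percentiles 43.5 to 68.9 of the level per kb.

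*Fstl1* made up 69.0% of the summed level per kb of the 9 antagonists in control libraries, against 66.0% in the mutants. The sum was 653.5 per kb in control and 598.8 per kb in mutant libraries, a log2 ratio of -0.13, and without *Fstl1* it was 202.7 and 203.6. For scale, the sum over 11 BMP and GDF ligands was 171.7 per kb in control and 176.8 in mutant libraries, and over 4 ligands of the activin class 20.03 and 18.8. *Fst* and *Fstl3* together came to 7.83 and 9.69 per kb, which is lower than the summed level of the activin class ligands in each group.

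**Figure D3:**
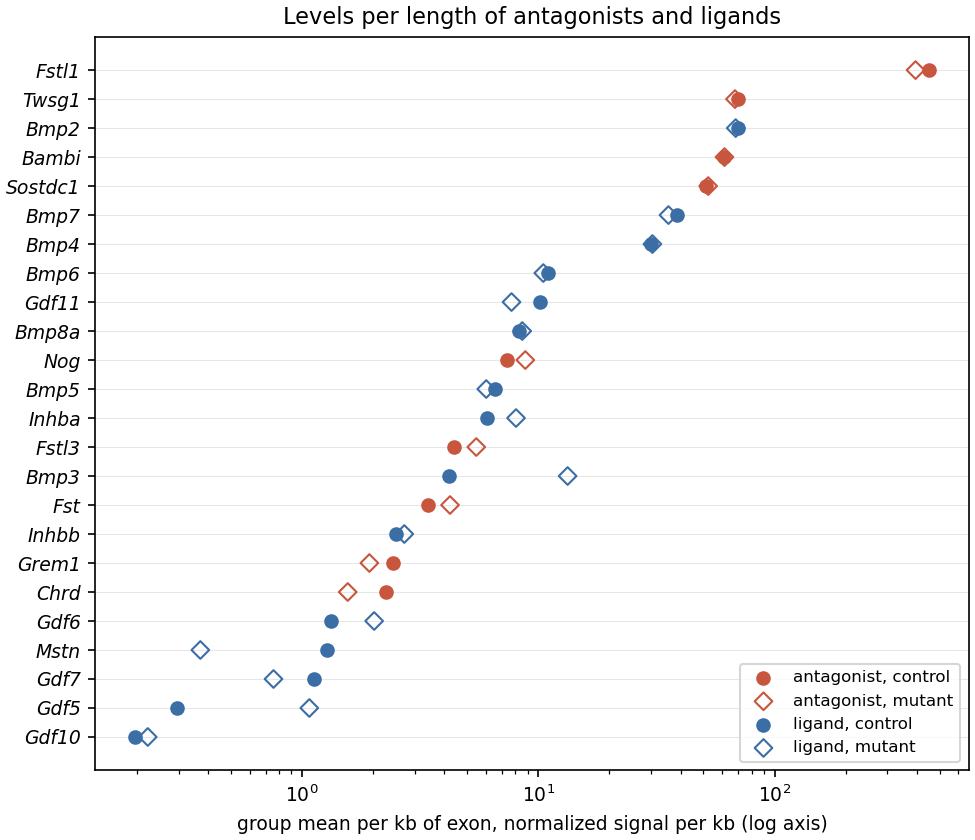
Group means per kb of exon (normalized signal per kb, log axis) of the 9 antagonists (red) and of BMP, GDF and activin class ligands (blue) in control (filled circles) and *Arid1b* mutant (open diamonds) libraries. *Fstl1* lies above all plotted ligands at 450.8 and 395.1 per kb, whereas *Chrd* and *Grem1* lie among the lowly expressed genes.

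Other extracellular antagonists and related proteins, taken from a broad list of 28 of which 25 were in the table, included some past 1.5-fold. Not every gene of the list encodes an antagonist of BMP or activin, so the counts are not counts of such antagonists. Of these 25, 1 was higher and 4 were lower past 1.5-fold, beside 13.2% of all genes in either direction, and the median log2 ratio was -0.05. Of the 13 that averaged at least 10, only *Chrdl1* was past it, beside 3.06% of all genes in that range. *Chrdl1*, a chordin-like BMP antagonist, had means of 29.5 in control and 12.5 in mutant libraries, a ratio of 0.424. *Kcp*, which carries chordin-type repeats, had means of 4.86 and 3.07. *Sost*, which encodes the Wnt inhibitor sclerostin, had means of 7.81 and 3.69, and *Bmper*, another protein with chordin-type repeats, was higher in the mutants at 8.35 against 4.90 in the controls. *Lefty2* was also past the limit, at means of 0.175 and 0.103 that correspond to a few reads per library.

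Chordin is cut and inactivated by proteases of the tolloid family. *Bmp1*, the most abundant of the 3 listed, had a control mean of 196.8 and a mutant mean of 169.7. *Tll1* had means of 4.73 and 10.7, a ratio of 2.26, and *Tll2* had means of 2.06 and 2.27. The protease with the widest ratio was thus one of low expression, and the summed means of the 3 were 203.6 for control and 182.6 for mutant libraries.

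Most of the ligands listed differed by less than 1.5-fold between the group means. Of 11 BMP and GDF ligands, 3 were past 1.5-fold, each in the direction of a greater mutant mean, beside 13.2% of all genes in either direction, and the median log2 ratio over the list was 0.01. They were *Bmp3* (means of 30.8 and 98.4), *Gdf5* (0.685 and 2.49) and *Gdf6* (4.67 and 7.12), and *Bmp3* was the only one past the limit among the 7 that averaged at least 10. Noggin is known to bind GDF5 and GDF6 as well as BMPs. *Bmp2*, *Bmp4* and *Bmp7*, which encode ligands of both noggin and chordin, had ratios of 0.977, 1.01 and 0.920. Of the 4 activin class ligands, *Inhba*, which encodes the subunit of activin A, had a ratio of 1.33 beside the ratios of 1.24 for *Fst* and *Fstl3*. *Inhbb* had a ratio of 1.09, *Gdf11* of 0.754, and only *Mstn* was past the limit, with means of 3.45 and 1.00.

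The counts past 1.5-fold for receptors and intracellular genes of the pathway lay near those of all genes. Of 13 receptors and co-receptors in the table, 2 were past 1.5-fold, both higher in the mutants and both of low expression, namely *Rgma* (means of 4.93 and 8.31) and *Bmpr1b* (0.157 and 0.267), beside 13.2% of all genes, and the median log2 ratio was 0.09. The most abundant receptor, *Bmpr2*, had a ratio of 0.977. None of 14 SMAD and BMP target genes was past the limit, beside 3.06% of all genes averaging at least 10, as each of the 14 did. Of the 14, 13 had lower means in the mutants, with a median log2 ratio of -0.10. Among all 10311 genes averaging at least 10, 5127 had lower means in the mutants. Among the targets of BMP signaling, *Id1*, *Id2*, *Id3* and *Id4* had ratios of 0.791, 0.920, 0.8003 and 1.07. The ratios were 0.9002 and 0.863 for *Msx1* and *Msx2*, and 0.812 and 0.971 for the inhibitory *Smad6* and *Smad7*. These lists describe group means only, and none was tested against other genes.

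**Figure D4:**
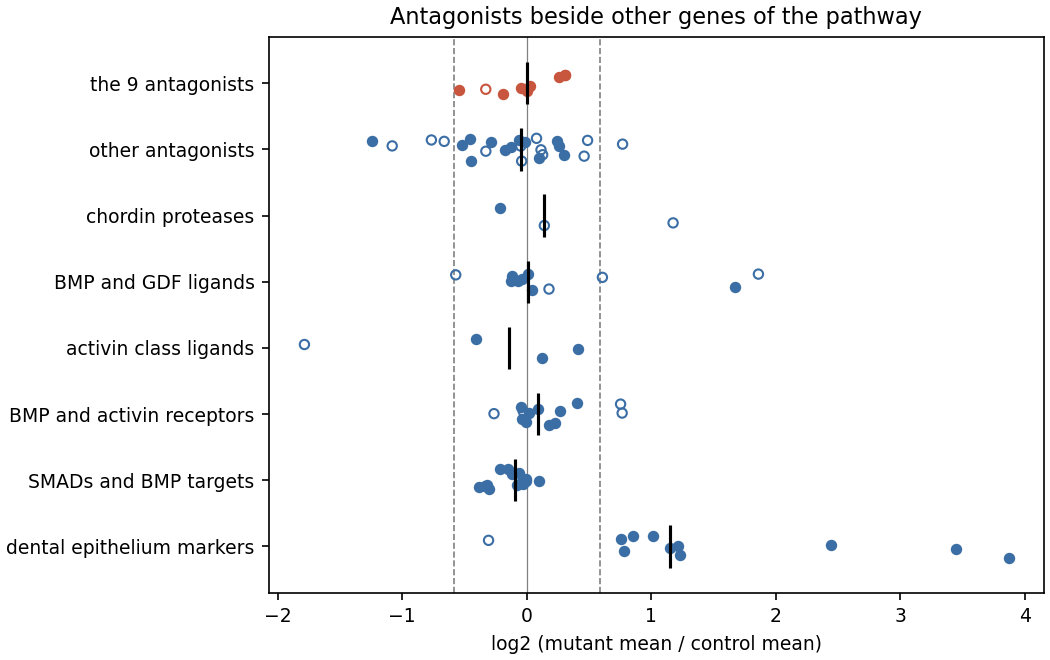
Log2 ratio of mutant to control mean for the 9 antagonists (red) and for fixed lists of pathway genes and dental epithelium markers (blue), where open circles are genes with a mean under 10, black bars are medians and dashed lines mark 1.5-fold. The antagonists lie between -0.54 and 0.31, and 10 of the 11 epithelial markers lie to the right of the upper line.

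Several features of the libraries moved with the groups. The summed mean of 11 markers of dental epithelium was 1689 for control and 10457 for mutant libraries, 10 of them were past 1.5-fold and higher, and none was at 0, although the tissue is described as mesenchymal. The enamel matrix genes *Amelx*, *Ambn* and *Enam* carried most of it, with 1115 and 9290, and the other 8 together had 573.5 and 1167. Of 8 markers of dental mesenchyme all were expressed, with summed means of 25450 and 21400, of which *Col1a1* alone supplied 21211 and 17127. Of these 8, *Gli1* was lower past 1.5-fold, at 106.4 in control and 46.1 in mutant libraries, and *Igfbp6* was higher, at 6.04 and 9.60. The mutants also carried the Gli1-CreER driver, which the study's methods do not list for the controls. Its part in the *Gli1* means was not tested. All 4 odontoblast markers had lower means in the mutants, and *Dmp1* was past 1.5-fold, at 68.1 and 23.7. All 3 erythroid markers were lower past 1.5-fold, and none of the 4 markers each of endothelium, macrophages, or pericytes and smooth muscle was past it. All 4 skeletal muscle markers were past it, 3 lower and *Myh4* higher (0.552 and 2.06), each averaging under 10. Of 4 glial markers 3 were lower, and only *S100b* was past it, higher at 1.18 and 1.83. The 4 proliferation markers were all higher, and none was past it. Beside these counts, 13.2% of all genes and 3.06% of those averaging at least 10 were past 1.5-fold. The targeted gene *Arid1b* had a control mean of 97.6 and a mutant mean of 38.0. *Ddx3y*, on the Y chromosome, stood at its group's lowest value in control libraries and at 65.3 in mutant libraries, and *Xist*, expressed from an inactive X chromosome, had means of 3368 and 813.8. Expression of both in the mutant group but of *Xist* alone in the control group means that the groups differ in sex, and with 1 mean per group sex and genotype were not separated here. The part of the cell types named above, of proliferation and of sex in the ratios of the antagonists was not tested. In such bulk samples fewer cells of a type and less RNA per cell cannot be told apart. The number of reads on the listed genes was estimated at 37123643 to 49594469 per library.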

How the data were processed

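Bulk RNA-seq of the incisor was analysed from 3 control and 3 *Arid1b* mutant libraries. The authors trimmed reads, aligned them to mm10 and compared groups in Partek Flow. The submitters' processing notes name TopHat2 2.0.8, and the counting of reads and the normalization are not described in the sources used here. The upper quartile of the normalized values was 44.6 in every library, as under scaling to that quartile, while the library means ran from 49.2 to 54.5. The deposited values are a normalized signal, as 1 least-squares mean per group and gene, equal to the arithmetic mean of the libraries. The 4 columns of the authors' own comparison hold p-values, FDR, ratios and fold changes and were not used, nor was their filtered table. Unmatched sample columns numbered 0. The limma test planned for values per library was replaced by the ratio of the 2 means, with no test.

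Ratios were computed without a pseudocount. They were checked on simulated data that held counting error but no spread between mice, so the check covers the calculation and not that spread. Other limits, a pseudocount, centring, a minimum mean and other lengths were the alternatives. Reads were estimated as the value divided by the library minimum, minus 1. Low means within 5 reads of the minimum were whole reads, within 1% of 1 read, for 63.6% in the controls and 52.4% in the mutants, so counting intervals (95%, exact, from the binomial split of the estimated reads) are approximate. Positions and exon lengths are from GENCODE vM21 (GRCm38, the assembly also called mm10), which matched 18840 of the 19270 gene names. The members and lists were chosen with earlier results of these data known. Named are all 9 antagonists, list members past 1.5-fold, ligands that bear on an antagonist, *Arid1b*, *Ddx3y* and *Xist*; the genes that overlap exons, the target genes, *Col1a1* and the range of 5 to 20 were chosen after their values were seen. Tables were handled with pandas 2.3.3 and numpy 2.4.6 under Python 3.11.15, intervals with scipy 1.17.1 and plots with matplotlib 3.10.9.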

Additional observations from a re-analysis of the deposited data

How the results depend on the processing

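With a limit of 25% between the means in place of 1.5-fold, 2 antagonists were past it, and the same count of 2 was found among genes with a mean between 5 and 20, a setting added after the data were seen. A limit of 2-fold, a minimum mean of 10, a pseudocount of 1 and centring on the median of all genes each left the count at 0. The median log2 ratio of the antagonists was near 0 under each setting, and its mean was -0.023. A pseudocount or centring kept the sign of all 18 recomputed values of single antagonists and moved them by at most 0.04. With the longest transcript as length, 2 antagonists changed places in each group, and these were *Grem1* and *Chrd*. Restricted to genes averaging 10 or more, a setting added for the lists after the data were seen, the median was -0.21 for chordin proteases, where 1 gene was left, and 0.12 for activin class ligands, where *Mstn* was left out. No paired analysis was possible because the table gives 1 mean per group and gene, and leaving out a library could not be run for the same reason. The missing spread between mice limits every comparison, and depth limits genes of few reads such as *Lefty2*, estimated at 17 reads in control and 10 in mutant libraries.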

Other observations

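Proteins of the extracellular matrix that can bind BMPs or TGF-β had lower means in the mutants. *Smoc2* had means of 207.5 in control and 144.5 in mutant libraries, a ratio of 0.696, and its relative *Smoc1* had means of 15.7 and 11.5, a ratio of 0.732. The proteoglycan genes *Dcn* and *Bgn* had ratios of 0.730 and 0.818, while *Gpc3*, which encodes a proteoglycan of the cell surface, had a ratio of 0.959. None of these 5 was past 1.5-fold. They were picked from the list of other antagonists and related proteins after their values were seen, and their difference from other genes was not tested.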
